A study of Mus musculus with 8 samples.

Results

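The 6 genes described here, Mcpt8, Prss34, Cpa3, Ms4a2, Fcer1a and Gzmb, are genes of basophils and mast cells, chosen by name from the 27998 genes of the count table with earlier results of these data known. They were followed in 29891 bone marrow cells of female C57BL/6 (B6) mice aged 3 to 4 months, and the labels name no transgene, deletion or drug for either group. Control mice stayed in a specific-pathogen-free (SPF) facility, and the CVT mice were moved from it to a conventional facility and housed for 1 month with mice born there. Sorted KL cells, which lack the markers of mature lineages and carry CD117 (the stem cell factor receptor, product of Kit), were pooled from 2 or 3 mice, giving 4 pools from 10 mice per group. SPF mice made pools 1, 2, 7 and 8, and CVT mice made pools 3, 4, 5 and 6. Their transcripts were counted by the 10x Genomics 3' droplet method as unique molecular identifiers (UMIs), each of which stands for 1 captured molecule. A cell's pool was read from the number ending its name, matched to the pool number in the sample labels, which the table itself does not state.

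Basophils and mast cells are granulated cells that carry IgE on a high-affinity receptor and release histamine, proteases and cytokines when that IgE is crosslinked. Both arise in the bone marrow from progenitors that express the transcription factor GATA2, and mast cells then mature in tissues, whereas basophils mature in the marrow and circulate. Their granules are packed with serine proteases and a carboxypeptidase held on proteoglycan, and the set of proteases differs between the lineages. The sort for CD117 favours progenitors and mast cells, since mature basophils carry little of it.

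Of the 6 genes, Fcer1a encodes the IgE-binding alpha chain of the IgE receptor and Ms4a2 its beta chain, which amplifies the signal. Mcpt8 encodes mast cell protease 8, a granule protease of mouse basophils in spite of its name, and Prss34 a tryptase-like protease also known as mast cell protease 11, likewise of basophils. Cpa3 encodes the mast cell carboxypeptidase, which is also transcribed in basophils and in early progenitors. Gzmb encodes granzyme B, best known from cytotoxic lymphocytes and also made by mast cells. By symbol, in GENCODE M21 (GRCm38), they lie at chr1:173221284-173227214 (Fcer1a), chr3:20215620-20242181 (Cpa3), chr14:56082166-56085273 (Mcpt8), chr14:56258838-56262260 (Gzmb), chr17:25298394-25300165 (Prss34) and chr19:11615523-11623719 (Ms4a2), and all but Prss34 are on the minus strand. Mcpt8 and Gzmb belong to the same protease cluster on chromosome 14, with 174 kb between them.

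The sequences just before the start of transcription are shown because the members were high in the same class of cells. Gata2, which was among the markers that named that class, was high there as well. RefSeq promoter sequences (GRCm38.p6) were found for all 6 genes, and the 250 bases upstream of the start were searched on both strands for the GATA motif, with overlapping matches counted. The motif was searched as AGATAA and, with the last base exchanged, as AGATAG. It was also searched with T as the first base, as TGATAA and, with the last base exchanged, as TGATAG. At least 1 match stood in 4 of the 6, against 26.5% of the 32851 promoters of the same length, and Ms4a2 held 3 where 6.40% of all promoters held 2 or more. The windows of Mcpt8 and Gzmb held none of these letters. The 4 sequences with a match are printed 5′ to 3′ on the strand of the gene, ending at the base before the start, with the matches in capitals.
Fcer1a, chr1:173227230-173227479, minus strand: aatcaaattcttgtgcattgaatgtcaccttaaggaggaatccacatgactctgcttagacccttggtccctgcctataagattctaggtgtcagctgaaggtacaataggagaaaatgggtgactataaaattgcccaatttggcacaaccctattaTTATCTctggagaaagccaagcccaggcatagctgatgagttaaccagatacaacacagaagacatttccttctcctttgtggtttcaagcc
Ms4a2, chr19:11623720-11623969, minus strand: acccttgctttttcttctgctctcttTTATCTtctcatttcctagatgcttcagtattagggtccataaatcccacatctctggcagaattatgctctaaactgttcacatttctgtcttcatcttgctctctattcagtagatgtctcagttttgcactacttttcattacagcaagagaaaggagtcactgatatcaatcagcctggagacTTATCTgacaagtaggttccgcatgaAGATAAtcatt
Cpa3, chr3:20242182-20242431, minus strand: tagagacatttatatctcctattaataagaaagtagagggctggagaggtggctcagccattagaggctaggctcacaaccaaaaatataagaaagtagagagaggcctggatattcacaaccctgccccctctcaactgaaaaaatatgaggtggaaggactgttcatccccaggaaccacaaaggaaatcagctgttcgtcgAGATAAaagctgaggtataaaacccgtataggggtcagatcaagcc
Prss34, chr17:25298144-25298393, plus strand: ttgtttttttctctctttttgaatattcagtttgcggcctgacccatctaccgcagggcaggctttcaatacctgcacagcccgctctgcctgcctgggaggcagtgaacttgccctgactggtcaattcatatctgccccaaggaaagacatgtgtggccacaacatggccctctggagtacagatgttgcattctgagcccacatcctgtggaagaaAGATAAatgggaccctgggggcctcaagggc
The first base of the match lay 31 bases before the start in Prss34, 46 in Cpa3, 92 in Fcer1a, and 11, 37 and 224 in Ms4a2. A match is a run of letters and not a measured binding site.

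The pools held 1888 to 4845 cells and 19041749 to 59812346 UMIs, with a median of 7529.5 to 12771.5 UMIs per cell. Of the cells, 3.51% had a barcode seen in more than 1 pool. The cells were clustered without the 6 genes into 32 clusters, which were named only from marker lists that also lacked them, and are called "-like" for that reason. A cluster of 782 cells (median 5666 UMIs) was basophil and mast-like, with Hdc, Lmo4, Il6, Il1rl1, Slc18a2, Gata2 and Cd63 among its specific genes. Of the 18 markers listed for it, Tpsb2 and Tpsab1 (mast cell tryptases), Mcpt4 (a mast cell chymase) and Tph1 (serotonin synthesis) had no UMI in these cells, and Il13 had few.

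All 6 genes had their highest level in the basophil and mast-like class, in every pool. Levels are given as CPM, a gene's UMIs divided by all UMIs of the summed cells and scaled to 1e6, as the mean ± SD over the 8 pools. They are descriptions, because the classes were made from the same cells, and 3' UMI counts were not used to rank genes against each other.

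Ms4a2 and Fcer1a, the receptor chains, shared their pattern. Ms4a2 was at 391 ± 61.9 CPM in the class, followed by 42.2 ± 11.1 in megakaryocyte-like cells and 7.99 ± 2.44 in the clusters without a name, and these first levels did not overlap over pools. Fcer1a was at 194 ± 86.5 CPM, followed by 30.9 ± 24.8 in megakaryocyte-like cells and 2.54 ± 2.24 in multipotent progenitor (MPP)-like cells. The megakaryocyte-like level did not overlap with the level above or below it for either gene, while the groups further down overlapped with their neighbours in the order of levels. Of all Ms4a2 UMIs, 25.9% were in megakaryocyte-like cells and 18.9% in a cycling cluster of 718 of them, and for Fcer1a 33.3% and 22.1%. That cluster was at 87.0 CPM of Ms4a2 and 55.0 CPM of Fcer1a. In it, 19 cells with 10 or more Ms4a2 UMIs held 7.03% of all Ms4a2 UMIs. Another count, of cells with 10 or more Fcer1a UMIs, was 10, and they held 11.7% of all Fcer1a UMIs. The megakaryocyte-like clusters of 1689 and 415 cells were at 13.1 and 29.2 CPM of Ms4a2 and 10.3 and 29.9 CPM of Fcer1a. Over the 32 clusters the log2(CPM + 1) values of Ms4a2 and Fcer1a had a Pearson correlation of 0.91, the highest of any pair of the 6, and 0.87 without the basophil and mast-like cluster. The clusters share libraries and differ in depth, so no test was made.

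Cpa3 reached furthest into the other progenitors. It was at 915 ± 82.8 CPM in the class, where 85.5% of cells had a UMI, and the pools did not overlap with those of any other class. It then ran at 239 ± 96.6 CPM in T and NK-like cells, 116 ± 58.9 in MPP-like, 93.3 ± 28.0 in megakaryocyte-like, 76.9 ± 28.5 in the clusters without a name, 69.7 ± 18.6 in granulocyte (GMP)-like, 56.5 ± 26.5 in long-term stem cell (LTHSC)-like and 38.9 ± 13.4 in lymphoid-primed (LMPP)-like cells, each overlapping its neighbours in that order. Erythroid (MEP)-like cells were at 13.2 ± 5.13 CPM and monocyte-like cells at 9.21 ± 2.49. The T and NK-like level came mostly from a cluster of 92 cells with Tcf7, Rora, Gata3 and Zbtb16 among its leading genes, genes of early innate lymphoid cells and T cells, in which 51.1% of cells had a Cpa3 UMI (331 CPM). A granulocyte-like cluster of 970 cells, led by Ccl9, Mpo, Ctsg and Cebpa, held 14.9% of all Cpa3 UMIs, at 231 CPM.

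Mcpt8 and Prss34, the basophil proteases, differed in how far they spread beyond the class. Mcpt8 was at 707 ± 571 CPM in the class, over a range of 99.2 to 1965 between pools, and at 60.8 ± 23.5 CPM in granulocyte-like cells, which nevertheless held 31.4% of its UMIs against 27.0% in the class. In 2 granulocyte-like clusters, of 1171 and 970 cells, 50.2% and 49.6% of cells had a Mcpt8 UMI. Prss34 was at 857 ± 862 CPM in the class, which held 60.6% of its UMIs, and at 139 ± 231 CPM in megakaryocyte-like cells, from which 30.8% of its UMIs came. In each of the other groups its mean was between 1.07 and 4.75 CPM. Both genes overlapped between the class and megakaryocyte-like cells over the pools, whose own range ran from 2.16 to 593 CPM for Mcpt8 and from 0 to 685 CPM for Prss34.

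Gzmb was the member most confined to the class by its share of UMIs, of which 87.8% were there, at 387 ± 130 CPM and without overlap with any other group. T and NK-like cells followed at 10.5 ± 8.43 CPM, and 12.2% of the 49 cells of the cluster led by Ccl5, Cd3d and Klrd1 had a UMI of Gzmb. In granulocyte-like cells it was at 0.272 ± 0.270 CPM. No UMI of Gzmb or Fcer1a was seen in the 136 dendritic-like cells, which allows a share of cells with a UMI of up to 2.21%, for counting error only. It sets no limit on expressing cells, since at their median of 5598 UMIs a cell that expresses a gene can lack its UMI.

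Droplet libraries carry free RNA, so each share was set beside that in erythroid-like cells, which have no known use for these genes. With every cell thinned to 2759 UMIs, the smallest total of a cell, a UMI of Cpa3 was left in 70.2% of the 782 cells of the class, of Ms4a2 in 50.5%, of Gzmb in 20.3%, of Fcer1a in 20.1%, of Mcpt8 in 11.5% and of Prss34 in 4.73%. In erythroid-like cells the thinned shares were 5.51% for Cpa3 and between 0.145% and 0.725% for the other genes, at a median of 12272 UMIs before thinning (unthinned shares from 0.467% for Gzmb to 13.8% for Cpa3). Granulocyte-like cells were above that for Mcpt8, at 9.24% after thinning (30.4% before) at a median depth of 13376. For Prss34 their thinned share was 0.407% against 0.306% in erythroid-like cells. A granulocyte-like cluster of 316 cells was at 1.27%, with 2 cells of 10 or more Prss34 UMIs, and a cell of another such cluster had 106. Free RNA and expression of Prss34 were not told apart in the rest. The Cpa3 share in erythroid-like cells came largely from the cluster with the fewest UMIs per cell, at 12.8% of 1854 cells, while 2 late clusters were at 0.194% and 0.880%.

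**Figure D1:**
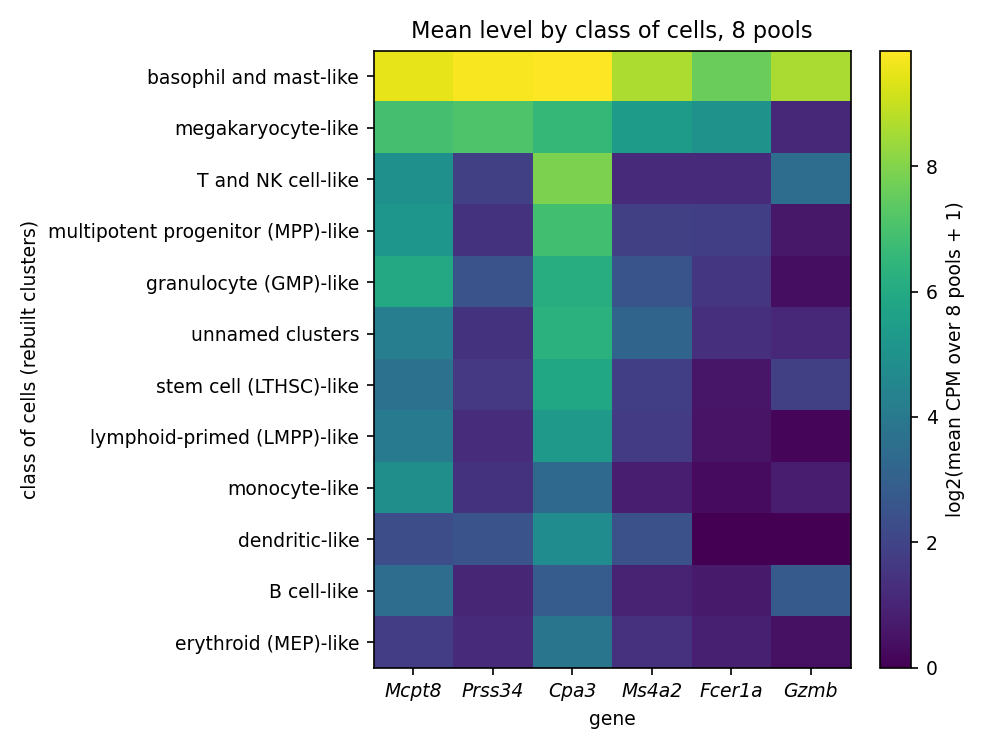
Mean level of each gene (columns) in each class of cells (rows), as log2(mean CPM over 8 pools + 1) on the colour scale. The basophil and mast-like row is the brightest in every column, Cpa3 is spread over most progenitor classes, and Gzmb is near 0 in nearly all of them.

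The transcripts were concentrated in few cells. Cells with 10 or more UMIs of a gene are called rich in it here, a limit chosen after the data were seen. Prss34-rich cells numbered 29 of 29891 and held 92.5% of all Prss34 UMIs, up to 837 in a cell, and Gzmb-rich cells numbered 75 and held 74.4% of all Gzmb UMIs, up to 103 in a cell. Mcpt8-rich cells numbered 89 (56.9% of its UMIs), Cpa3-rich 463 (44.6%), Ms4a2-rich 57 (18.8%) and Fcer1a-rich 38 (36.5%). Of the Prss34-rich cells, 21 were in the basophil and mast-like class, 5 in a cycling megakaryocyte-like cluster of 718 cells, 2 in a granulocyte-like cluster of 316 cells and 1 in another, so the megakaryocyte-like level given above rests on 5 cells for nearly all its Prss34. In that megakaryocyte-like cluster, 6 Mcpt8-rich cells held 13.9% of all Mcpt8 UMIs, where all megakaryocyte-like cells held 14.8%. In the basophil and mast-like class, 32 Mcpt8-rich cells held 25.4% of all Mcpt8 UMIs, where the class held 27.0%. The Mcpt8 level of the class thus rests mostly on these 32 of its 782 cells. Of the Gzmb-rich cells, 71 were in the class.

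No cell was rich in both Prss34 and Gzmb. The same held at limits of 5 UMIs (35 and 111 cells) and 20 UMIs (22 and 32 cells). At 10 UMIs, sets of 21 and 71 of the 782 cells of the class would share 1.91 cells if membership were unrelated, so an overlap of 0 is close to that and shows no separation by itself. Of the 29 Prss34-rich cells, 23 were also rich in Mcpt8, 22 in Cpa3, 15 in Fcer1a and 10 in Ms4a2, which is 79.3%, 75.9%, 51.7% and 34.5% of them. Of the 75 Gzmb-rich cells, 23 were rich in Cpa3, 4 in Mcpt8, 1 in Fcer1a and 0 in Ms4a2, which is 30.7%, 5.33%, 1.33% and 0% of them. The Prss34-rich cells were deeper, with a median of 8651 UMIs against 4836, and 2 of them and 3 of the Gzmb-rich cells were among the 5% of cells with the highest doublet scores in their pool.

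**Figure D2:**
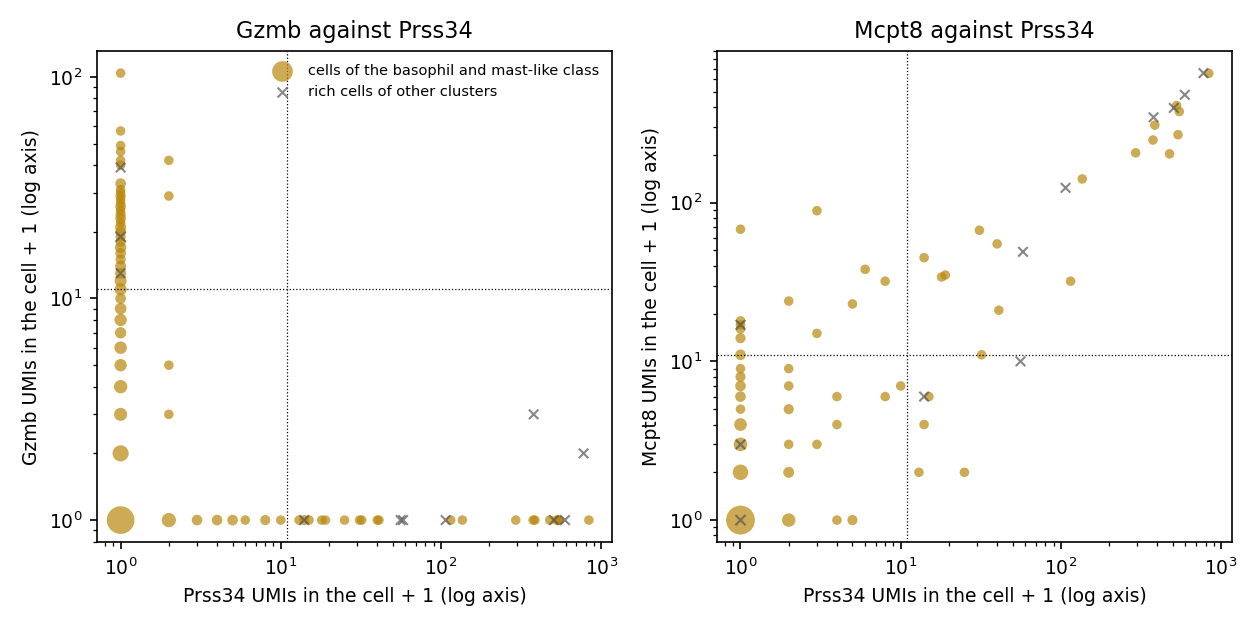
UMIs per cell plus 1, on log axes, of Gzmb (left) and Mcpt8 (right) against Prss34, in the 782 basophil and mast-like cells (filled) and the rich cells of other clusters (crosses). Marker area grows with the number of cells at a position, dotted lines mark 10 UMIs, and no cell lies above both lines on the left, whereas on the right most cells right of the line are also above it.

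Both sets were found in all 8 pools, with 2 to 6 Prss34-rich and 4 to 16 Gzmb-rich cells in each, and their other genes of the basophil and mast cell lists were set side by side, as a description. These genes, other than the members, were picked after their values were seen, most for being higher in the same set in 8 of 8 pools or absent from the other set. Both sets include the rich cells outside the class. Top2a, a gene of cycling cells, was at 227 CPM in Prss34-rich and 69.2 CPM in Gzmb-rich cells, higher in the former in 7 of 8 pools. The part of cluster and cycle in the differences was not tested. In Prss34-rich cells, Mcpt8 was at 18618 CPM against 316 in Gzmb-rich cells, and Ms4a2 at 812 against 265, each higher in 8 of 8 pools. Ctsg (cathepsin G, 3631 against 473 CPM), Cd63 (a granule membrane tetraspanin, 2935 against 1778), Alox5ap (leukotriene synthesis, 639 against 203) and Spi1 (the transcription factor PU.1, 199 against 99.1) were likewise higher in 8 of 8. Cd200r3, a surface receptor of basophils and mast cells, was at 303 CPM in Prss34-rich cells, in 15 of 29 cells, and had no UMI in Gzmb-rich cells.

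In the opposite direction, Lmo4 (2610 against 1025 CPM), Itgb7 (an integrin chain of mast cell progenitors, 240 against 65.0), Kit (196 against 28.9) and Ctsc (cathepsin C, which activates granule proteases, 136 against 36.1) were higher in Gzmb-rich cells in 8 of 8 pools. Cma1, the mast cell chymase, was at 122 CPM there, in 10 of 75 cells, and had no UMI in Prss34-rich cells. Of the same lists, Tpsb2, Tpsab1, Mcpt4, Tph1, Mrgprb1 and Mrgprb2 had no UMI in either set. Hdc was higher in Prss34-rich cells (375 against 115 CPM) in 7 of 8 pools. Mitf, a transcription factor of mast cells, was at 39.2 CPM in Gzmb-rich cells (17 UMIs in 13 cells), higher there in 6 of 8 pools. In Prss34-rich cells it had 1 UMI (3.61 CPM), which is under a floor of 3 UMIs (10.8 CPM). Fcer1a was at 1585 CPM in Prss34-rich and 148 CPM in Gzmb-rich cells, higher in the former in 7 of 8 pools, and Cpa3 at 2888 and 1824 CPM, higher in 6 of 8. The cells of the class that were rich in neither had 727 CPM of Cpa3, 364 CPM of Ms4a2 and 146 CPM of Fcer1a. Their Mcpt8 was at 104 CPM, under the 120.5 CPM of the granulocyte-like cluster of 970 cells.

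Detection of the genes was also compared cell by cell within the class at equal depth. After thinning, a Fcer1a UMI was in 73.0% of the 37 cells with Prss34 and in 17.4% of the 745 without it, and a Mcpt8 UMI in 64.9% and 8.86%. A Gzmb UMI was in 2.70% of the cells with Prss34 and in 21.2% of those without. Gzmb and Ms4a2 were the pair with the least relation, since an Ms4a2 UMI was in 49.1% of the 159 cells with Gzmb and in 50.9% of the 623 without. These are shares of cells summed over pools, and no test was made on cells.

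The genes whose pattern over the 32 clusters was most like that of each member are given by the Pearson correlation of log2(CPM + 1), as a description. Mcpt8 went with Hsd17b1 (0.80) and with the azurophil granule genes Ctsg (0.72) and Mpo (0.71), Prss34 with Rnase12 (0.70) and Cd200r3 (0.67), and Cpa3 with Mdga1 (0.87) and the transcription factor Ikzf2 (0.86). Il6, a cytokine that mast cells secrete, was among the 5 most like genes of Ms4a2 (0.85), Fcer1a (0.81), Prss34 (0.67) and Gzmb (0.65). Fcer1a also went with Itga2b (0.73), an integrin chain of megakaryocytes and their progenitors, and Gzmb with Il4 (0.71). Without the basophil and mast-like cluster the correlation of Il6 with Gzmb was 0.28 and with Prss34 0.37, against 0.77 with Ms4a2.

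The study asked what conventional housing does to these progenitors. The housing groups were compared in counts summed over the cells of each pool, with edgeR's quasi-likelihood test and Benjamini-Hochberg adjustment over all genes tested. In the sums of all KL cells, where fewer cells of a type and less RNA per cell cannot be told apart, none of the 6 genes passed an adjusted p of 0.05, as none of all 13092 genes did (0%). Unadjusted p-values were under 0.05 for 2 of the 6 genes, and over all genes for 392 that were higher and 529 that were lower in CVT mice. DESeq2 called 28 genes higher and 2 lower in CVT mice and gave none of the 6 an adjusted p. In a fit that blocked on the pool set, 4 genes passed (1 higher in CVT mice, 3 lower), none of them a member, and the unadjusted p was 0.00298 for Cpa3 (adjusted p = 0.194), 0.0126 for Fcer1a (0.274) and 0.0279 for Gzmb (0.325), all by edgeR. The plot of all KL cells by pool shows these values.

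Mcpt8 was at 24.4, 42.8, 54.6 and 46.9 CPM in CVT pools 3 to 6 and at 12.3, 34.8, 73.5 and 43.7 CPM in SPF pools 1, 2, 7 and 8. The lowest and the highest pool were both SPF, and the log2 fold change, CVT over SPF, was 0.07 (SE 0.44, adjusted p = 0.982 by edgeR). The richest cell held 7.41% to 44.9% of a pool's Mcpt8 UMIs, the most in SPF pool 7. Without that pool the log2 fold change was 0.51 (unadjusted p = 0.220, adjusted p = 0.928 by edgeR).

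Prss34 was at 1.70, 7.72, 50.7 and 18.2 CPM in the CVT pools and at 1.84, 27.8, 63.1 and 30.9 CPM in the SPF pools. Each group had pools under 2 and over 50 CPM, the richest cell of a pool held 29.2% to 62.0% of its Prss34 UMIs, and the log2 fold change was -0.65 (SE 0.94, adjusted p = 0.904 by edgeR). It was -1.72 without CVT pool 5 and -0.06 without SPF pool 7.

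Cpa3 was at 44.3, 43.0, 54.7 and 50.3 CPM in the CVT pools and at 50.3, 54.7, 64.0 and 84.8 CPM in the SPF pools. The CVT pools lay in the lower part of the range and overlapped the SPF pools, with a log2 fold change of -0.36 (SE 0.16, unadjusted p = 0.0446, adjusted p = 0.697 by edgeR). Without SPF pool 8 it was -0.17 (unadjusted p = 0.164 by edgeR). In the same sums the summed LTHSC markers were at 99.2 to 169.2 CPM in CVT and 169.4 to 201 CPM in SPF pools, with 10 of 12 genes negative, and all 11 MPP markers were negative (1035 to 1214 and 1157 to 1301 CPM), with none called in either list. Their part in the Cpa3 values was not tested.

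Ms4a2 was at 9.43, 10.6, 10.95 and 10.9 CPM in the CVT pools and at 11.9, 10.9, 15.3 and 12.1 CPM in the SPF pools. The groups touched at about 11 CPM, and the log2 fold change was -0.20 (SE 0.12, adjusted p = 0.746 by edgeR).

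Fcer1a was at 4.13, 7.14, 8.90 and 8.004 CPM in the CVT pools and at 2.73, 3.10, 8.53 and 5.27 CPM in the SPF pools, from 52 to 427 UMIs a pool. The groups overlapped, since SPF pool 7 was above 3 of the CVT pools, and the log2 fold change was 0.58 (SE 0.35, adjusted p = 0.757 by edgeR). The richest cell held 5.88% to 38.5% of a pool's Fcer1a UMIs, the most in SPF pool 7 (65 of 169). Without that pool the log2 fold change was 0.94 (unadjusted p = 0.0110, adjusted p = 0.872 by edgeR).

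Gzmb was at 4.85, 5.68, 7.33 and 3.54 CPM in the CVT pools and at 5.78, 9.14, 8.58 and 7.83 CPM in the SPF pools. All SPF pools but pool 1 were above all CVT pools, and the log2 fold change was -0.51 (SE 0.21, unadjusted p = 0.0379, adjusted p = 0.684 by edgeR).

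**Figure D3:**
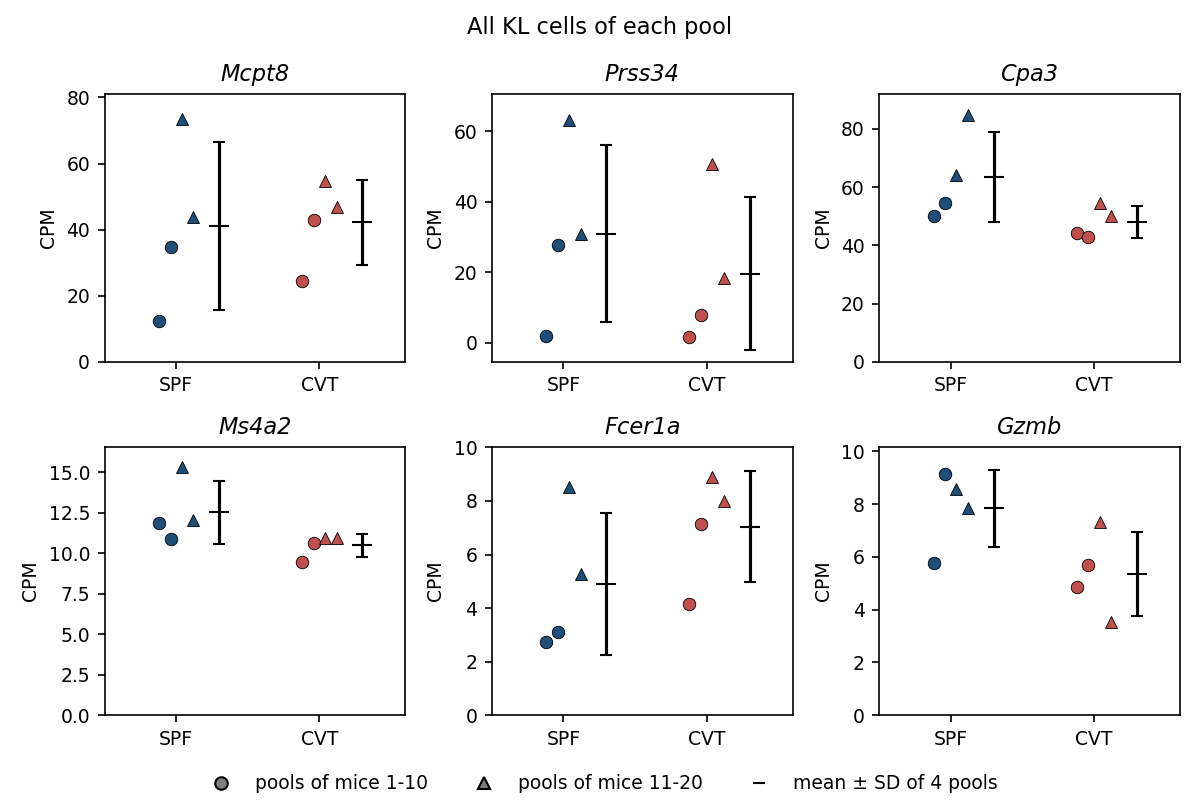
CPM of each gene in the summed KL cells of each pool (vertical axes), by housing group, with the mean ± SD of 4 pools beside the points; circles are pools of mice 1 to 10 and triangles pools of mice 11 to 20. The groups overlap for all 6 genes, and triangles lie higher on average for Mcpt8, Prss34, Cpa3 and Fcer1a.

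Neither the number of basophil and mast-like cells nor the number of cells with each transcript differed beyond the spread between pools. The class made up 2.50%, 2.56%, 2.51% and 2.64% of the cells of the CVT pools and 1.75%, 2.57%, 2.62% and 3.26% of those of the SPF pools. The SPF pools held both the lowest and the highest share, and the difference in means was 0.00290 percentage points (exact permutation test over 70 regroupings, two-sided p = 1). Thinned shares of cells with a UMI were tested in the same way for each gene on its own, where 4 pools against 4 cannot give a p below 0.0286. The share for Fcer1a was 1.29% ± 0.178 in CVT and 0.865% ± 0.311 in SPF mice (SD, n = 4, exact p = 0.114), and that for Mcpt8 4.51% ± 0.673 and 3.23% ± 1.09 (SD, n = 4, exact p = 0.114). For the other 4 genes the exact p was between 0.343 and 0.686.

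Within the class, edgeR called Fcer1a higher in CVT mice. Summed over the basophil and mast-like cells, it was at 171, 297, 349 and 193 CPM in CVT pools 3 to 6, from 129, 245, 239 and 133 UMIs. It was at 174, 110, 148 and 108 CPM in SPF pools 1, 2, 7 and 8, from 37, 69, 53 and 106 UMIs. All CVT pools but pool 3 were above all SPF pools, and pool 3 was just under SPF pool 1. The log2 fold change was 1.08 (SE 0.19), with an adjusted p of 0.0290 by edgeR, and no other of the 6200 genes tested passed (0.0161% called), while 212 higher and 143 lower genes had an unadjusted p under 0.05. Within pools of mice 1 to 10 the CVT and SPF means were 234 and 142 CPM, and within pools of mice 11 to 20 they were 271 and 128 CPM.

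The call was not firm. DESeq2 did not call Fcer1a (unadjusted p = 0.00109, adjusted p close to 1) or any other gene, and the edgeR call was lost without SPF pool 2 (adjusted p = 0.380), SPF pool 8 (0.714) or CVT pool 5 (0.118), and when the 6 genes were allowed into the clustering (log2 fold change 0.81, adjusted p = 0.468). Without the Prss34-rich cells, a choice made after the data were seen, the log2 fold change was 1.28 (adjusted p = 7.895e-05 by edgeR). Of all 29 Prss34-rich cells, in and outside the class, 15 were also rich in Fcer1a. In all cells outside the class the log2 fold change was 0.27 (SE 0.50, adjusted p = 0.923 by edgeR). The share of the class with a Fcer1a UMI after thinning was 23.9% ± 3.60 in CVT and 16.97% ± 4.50 in SPF mice (SD, n = 4, exact permutation p = 0.0857), and the richest cell held 10.9% to 43.4% of a pool's Fcer1a UMIs there. The same share for Mcpt8 was 14.4% ± 3.40 in CVT and 9.10% ± 2.97 in SPF mice (SD, n = 4, exact permutation p = 0.0857).

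Other marker lists in the same cells are given by their summed level, and none of their genes was called. The 12 handling-stress genes, such as Fos and Jun, were at 802 to 3227 CPM in CVT and 1213 to 1906 CPM in SPF pools, so the SPF range lay within the CVT range, and all 10 genes tested had a positive fold change. That of the 18 granulocyte markers was at 4542 to 6435 CPM in CVT and 4116 to 4718 CPM in SPF pools, with 12 of 15 tested positive. Markers of myeloid and pre-megakaryocyte-erythroid (CMP) progenitors were at 3128 to 3687 CPM in CVT and 3684 to 4063 CPM in SPF pools, with 7 of 11 tested negative. Erythroid markers were at 718 to 1121 CPM in CVT and 875 to 1201 CPM in SPF pools, with 8 of 9 tested negative, and eosinophil markers at 53.6 to 438 and 72.3 to 692 CPM, with 1 gene tested. Their part in the Fcer1a result was not tested.

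The other 5 genes passed no test within the class. Gzmb was at 319, 346, 412 and 149 CPM in the CVT pools and at 485, 589, 446 and 351 CPM in the SPF pools. Of the CVT pools, 3 were below all SPF pools and pool 5 lay among them, with a log2 fold change of -0.53 (SE 0.18, unadjusted p = 0.00820, adjusted p = 0.743 by edgeR). Mcpt8 ran from 99.2 to 1965 CPM in CVT and from 287 to 951 CPM in SPF pools, and Prss34 from 94.0 to 2797 and from 165 to 1090 CPM. CVT pool 5 was the highest for both, and log2 fold changes were 0.33 (SE 0.43) and 0.33 (SE 0.51). The SEs from DESeq2 were larger, at 0.84 and 1.01. Cpa3 ran from 761 to 1024 CPM in CVT and from 878 to 989 CPM in SPF pools (log2 fold change 0.03, SE 0.09), and Ms4a2 from 340 to 425 and from 272 to 463 CPM (0.10, SE 0.13), and the groups overlapped for both.

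**Figure D4:**
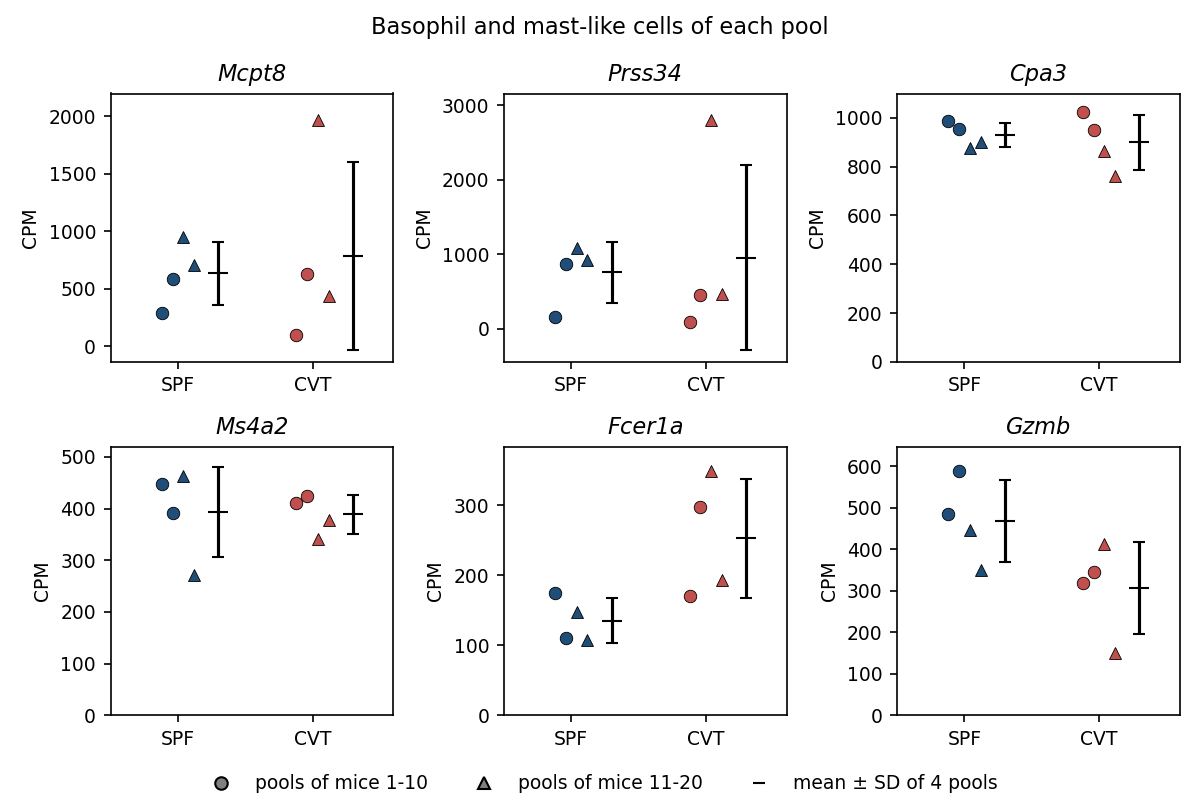
CPM of each gene in the summed basophil and mast-like cells of each pool (vertical axes), by housing group, with the mean ± SD of 4 pools beside the points; circles are pools of mice 1 to 10 and triangles pools of mice 11 to 20. Fcer1a lies higher in 3 of the 4 CVT pools than in all SPF pools, and 1 CVT pool stands far above the others for Mcpt8 and Prss34.

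In the sums of all other cells, none of the 6 genes passed, as none of 13068 genes did (0%), while 2 had an unadjusted p under 0.05 by edgeR and DESeq2 gave none of the 6 an adjusted p and called 1 gene. Over all genes, 382 higher and 532 lower had an unadjusted p under 0.05. The 2 were Cpa3, with a log2 fold change of -0.44 (SE 0.18, unadjusted p = 0.0312, adjusted p = 0.673 by edgeR), and Ms4a2, with -0.37 (SE 0.13, unadjusted p = 0.0179, adjusted p = 0.673). Cpa3 was there at 31.3, 30.3, 41.3 and 39.1 CPM in the CVT pools and at 39.7, 41.4, 49.0 and 68.4 CPM in the SPF pools, which overlapped. Prss34 ran from 0.475 to 11.2 CPM in CVT and from 0 to 44.2 CPM in SPF pools and rested on the few rich cells described above.

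**Figure D5:**
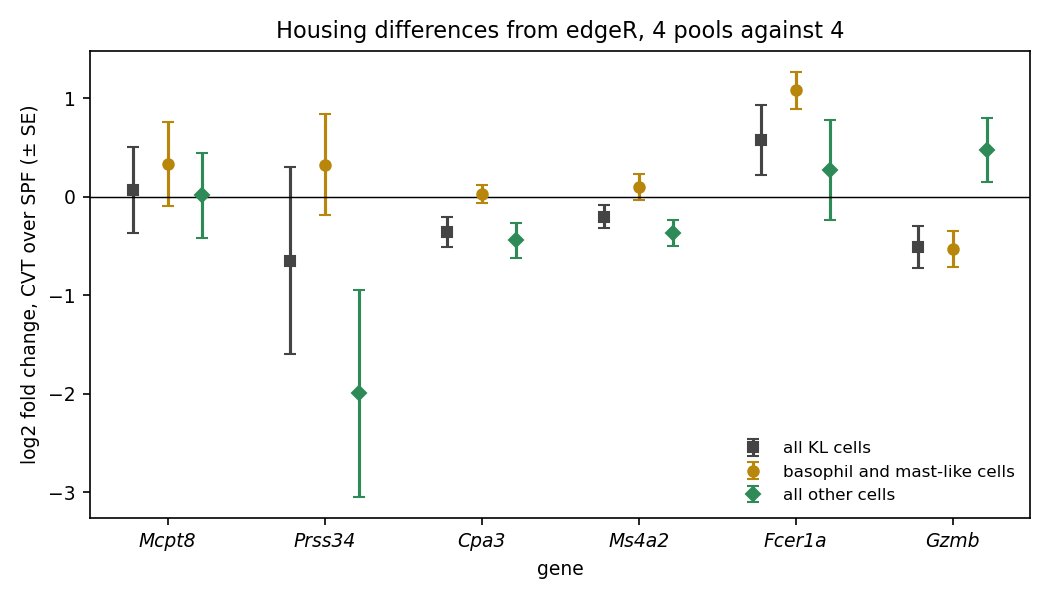
Log2 fold change of CVT over SPF (vertical axis) of each gene in all KL cells, in the basophil and mast-like cells and in all other cells. Error bars are ± SE derived from edgeR's F statistic, 4 pools against 4. Only Fcer1a in the basophil and mast-like cells passed an adjusted p of 0.05, and the error bars of Prss34 are the widest.

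The genes also differed between the sets of pools numbered from mice 1 to 10 (pools 1 to 4) and mice 11 to 20 (pools 5 to 8), each with 2 pools per housing group. In a model with housing, 3 of the 6 genes were higher in pools 5 to 8 in the KL sums, against 10.5% of all genes called higher. Prss34 was at 1.70 to 27.8 CPM in pools 1 to 4 and 18.2 to 63.1 CPM in pools 5 to 8 (log2 difference 2.17, SE 0.65, adjusted p = 0.0404 by edgeR). Cpa3 was at 43.0 to 54.7 and 50.3 to 84.8 CPM (0.39, SE 0.09, adjusted p = 0.0191 by edgeR), and Fcer1a at 2.73 to 7.14 and 5.27 to 8.90 CPM (0.83, SE 0.22, adjusted p = 0.0281). Mcpt8 (0.92, SE 0.31, adjusted p = 0.0577), Ms4a2 (0.19, SE 0.09, adjusted p = 0.147) and Gzmb (0.07, SE 0.20, adjusted p = 0.834) did not pass in edgeR. DESeq2 called Cpa3 and Fcer1a but not Prss34 (adjusted p = 0.0679). The ranges of all 3 genes called overlapped between the sets, and none of them passed without CVT pool 3 or CVT pool 5. Without SPF pool 2, CVT pool 4, CVT pool 6 or SPF pool 7, 1 of them passed (Prss34, Fcer1a, Cpa3 and Cpa3, in that order).

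Within the basophil and mast-like cells, Prss34 was again higher in pools 5 to 8 (log2 difference 1.70, SE 0.40, adjusted p = 0.0496 by edgeR), where 0.21% of 6200 genes were called higher. The richest cell held 35.7% to 99.3% of a pool's Prss34 UMIs in these cells. This fit and the interaction fit in the class were chosen after the data were seen, and neither was repeated without single pools. Mcpt8 differed by 1.31 (SE 0.34, adjusted p = 0.0878 by edgeR), and Fcer1a by 0.13 (SE 0.17, adjusted p = 0.899) in these cells. The difference of the housing effect between the sets of pools was tested as an interaction. None of the 6 genes passed it in the KL sums, as none of all genes did (0% by edgeR, where 505 positive and 683 negative terms had an unadjusted p under 0.05, none of a member, and DESeq2 called 6 and 26), nor in the class, where 4 genes passed (0.0645%). In the class, Prss34 had an interaction of 1.73 (SE 0.64, unadjusted p = 0.0104, adjusted p = 0.786 by edgeR), the only member with an unadjusted p under 0.05. For Fcer1a in the class the interaction was 0.29 (SE 0.34, adjusted p = 0.965 by edgeR).

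Genes that act with the 6 were taken from lists of 6 roles, and each list is given by its counts and its median beside that of all genes tested, in the same edgeR fits. In none of them did a gene pass between the housing groups, either in the KL sums, where the median log2 fold change of all genes was -0.01, or in the class, where it was 0.00. Of the IgE receptor's signalling partners, 13 of 13 were tested in KL sums (median -0.11) and 11 in the class (median -0.11). Fcer1g, the gamma chain that Fcer1a needs at the surface, was at 438 ± 68.1 CPM in CVT and 427 ± 58.9 CPM in SPF mice in the class (log2 fold change 0.10, SE 0.12), and Lat2, Lat and Btk, an adaptor pair and a kinase downstream, had fold changes of 0.03, -0.31 and 0.05. The alpha chain thus passed the main edgeR test in sums in which the gamma and beta chains did not, although its call was not firm. The difference between the chains was not tested.

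Of 17 granule proteins, proteases and inhibitors, 7 were tested in KL sums (median -0.11) and 5 in the class (median 0.08). Ctsg was at 643 ± 266 CPM in CVT and 441 ± 59.4 CPM in SPF mice in the class (log2 fold change 0.64, SE 0.18, unadjusted p = 0.00121, adjusted p = 0.430 by edgeR). Srgn, the proteoglycan core that binds granule proteases, Cd63 and Serpinb1a had fold changes of 0.09, 0.08 and -0.10. Ctsg is also among the 18 granulocyte markers given above.

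Of 12 genes for histamine, serotonin and lipid mediators, 10 were tested in KL sums (median -0.14) and 6 in the class (median 0.17). Hdc, which makes histamine, was 7.18-fold higher in the class than in other cells, at 156 ± 11.04 CPM in CVT and 147 ± 27.3 CPM in SPF mice. Slc18a2, the vesicular amine transporter, was 9.02-fold higher in the class (108 ± 11.6 and 96.9 ± 18.6 CPM), and Alox5ap and Lta4h, of leukotriene synthesis, had fold changes between the groups of 0.19 and 0.18 on the log2 scale. None of these passed the test between the housing groups. Hdc and Slc18a2 were among the markers that named the class, so their higher level there follows from the naming.

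Of 12 cytokines and chemokines, 9 were tested in KL sums (median -0.11) and 5 in the class (median 0.30). Il6 was among the markers that named the class, and its level, 91.5-fold higher there than in other cells, follows from the naming. It was at 27.3 ± 4.04 CPM in CVT and 29.99 ± 20.3 CPM in SPF mice, and Ccl9 was at 211 ± 19.6 and 185 ± 41.5 CPM (log2 fold change 0.32, SE 0.12, adjusted p = 0.761 by edgeR). Ccl4 and Ccl3 had fold changes of 0.43 and 0.30. Of 18 cytokine and surface receptors, 15 were tested in KL sums (median -0.10) and 8 in the class (median 0.09). Kit was at 117 ± 22.5 CPM in CVT and 142 ± 4.44 CPM in SPF mice in the class (log2 fold change -0.19, SE 0.13), and Crlf2, Cd9 and Itga2b had 0.14, 0.08 and 0.10.

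Of 15 transcription factors, all 15 were tested in KL sums (median -0.04) and 12 in the class (median -0.01). Lmo4, at 1257 ± 68.3 CPM in CVT and 1259 ± 190 CPM in SPF mice, was 21.8-fold higher in the class than in other cells. Gata2 was 6.32-fold higher there, at 435 ± 29.0 and 483 ± 39.0 CPM (log2 fold change -0.07, SE 0.10), Ikzf2 was 8.18-fold higher and Runx1 2.79-fold. Lmo4 and Gata2 were among the markers that named the class, so their higher level there follows from the naming. Between the sets of pools, where 10.5% of all genes were called higher in pools 5 to 8, calls were made in every list, with 7 of 13 genes for the IgE receptor's partners higher in pools 5 to 8 and 0 lower, 3 of 7 for granule proteins, 5 of 10 for mediators, 3 of 9 for cytokines, 6 of 15 for receptors and 3 of 15 transcription factors with 1 lower.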

How the data were processed

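Gene counts of single cells were used as deposited: the authors aligned 10x Genomics 3' v2 reads with Cell Ranger (version not given in the sources used here), and the processing notes name mm9. Coordinates and promoters above are GRCm38, matched by symbol. Cells were assigned to pools by the number ending their names. The members and gene lists were chosen with earlier results of these data known.

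Cells were scaled to 10000 UMIs, logged and clustered on 1000 variable genes without the members (scikit-learn 1.9.0 for 30 principal components and 30 neighbours, leidenalg 0.10.2 at Leiden resolution 2). A cluster was named from at least 3 listed markers among its 100 most specific genes. Scrublet (in scanpy 1.11.5) called 27 cells (0.0903%), which was taken as a failed call, so no doublets were removed. Summed counts were tested with edgeR 4.0.16 (TMM, quasi-likelihood, low-count filter, Benjamini-Hochberg adjustment, threshold 0.05), with DESeq2 1.42.0 as an alternative, and shares by two-sided exact permutation. The SE beside an edgeR fold change is its absolute log2 value divided by the square root of the quasi-likelihood F statistic. It is not an SE that edgeR reports. Named genes were the 6 members, the 4 genes of each role list with the highest level in the class, and genes among the 5 most alike to each member; those named in the comparison of rich cells outside this rule were picked after their values were seen. With 200 genes changed 2-fold in data of known answer, the KL fit recovered 80% (6 false among 166 calls) and the class fit 72% (7 of 151). Intervals for 0 UMIs use 3 counts. The labels name pools of separate mice.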

Additional observations from a re-analysis of the deposited data

Results flagged for a closer look

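Prss34 in the summed basophil and mast-like cells of CVT pool 5 stood apart from the other CVT pools, at 2797 CPM against 94.0, 459 and 464 CPM in CVT pools 3, 4 and 6. Its gap to the nearest pool was above Dixon's 95% critical value for 4 samples. The richest cell held 43.7% of the 1914 Prss34 UMIs of the pool's 109 such cells. Of the 50 groups of 4 pools examined in this way it was the only one to pass, and chance flags about 1 in 20.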

How the results depend on the processing

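No paired analysis was possible because pool and mouse numbers differ between the housing groups. The doublet caller marked too few cells to be used, so the planned fit without its doublets was not run. Leaving out the 5% of cells with the highest scores (1385 cells), and the Prss34-rich cells, were chosen after seeing the data. The fits of the pool set and of the interaction within the class were also chosen then.

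Of the members, the class sums gave 1 call with the main settings, 0 by DESeq2, 0 with the members allowed into the clustering, and 2 without the low-count filter (Fcer1a and Gzmb). Over all genes, DESeq2 called 28 higher and 2 lower in KL sums where edgeR called 0, and 18 higher and 2 lower passed in the class without the filter. Housing differences in thinned shares of cells were 1.24 (Prss34), 2.24 (Cpa3) and 1.27 (Ms4a2) percentage points in the class alone. The difference in the share of the class itself was -0.262 with the members allowed, -0.241 with the role lists removed, -0.0472 with 2000 variable genes and -0.0305 with cells filtered. In the class, log2 fold changes turned for Mcpt8 (-0.43 with the members allowed), Prss34 (-0.00685 with the pool set as block, -0.0284 with lists removed, -0.45 with the members allowed) and Cpa3 (-0.0545 with 2000 variable genes, -0.0307 with the members allowed, -0.0105 without Prss34-rich cells). In the other cells they turned for Mcpt8 (-0.0703 without the highest doublet scores) and Prss34 (0.35 with the members allowed). The cause was not tested.

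Leaving out each pool in turn gave -0.224 to 0.0626 and 0.328 to 0.560 percentage points for the shares of KL cells with Prss34 and Fcer1a, and -0.265 to 0.241 for the share of the class. Log2 fold changes in KL sums were -0.22 to 0.51 (Mcpt8), -1.72 to -0.06 (Prss34), -0.45 to -0.17 (Cpa3), -0.26 to -0.08 (Ms4a2), 0.40 to 0.94 (Fcer1a) and -0.69 to -0.36 (Gzmb), in the class -0.66 to 0.70 (Mcpt8), -1.15 to 0.71 (Prss34), -0.0293 to 0.0912 (Cpa3) and -0.0830 to 0.22 (Ms4a2), and in the other cells -0.27 to 0.49 (Mcpt8) and -0.00360 to 0.82 (Fcer1a). In the class, 0 to 1 members were called, with 0 without SPF pool 2, SPF pool 8 or CVT pool 5, and the adjusted p of Fcer1a ran from 3.589e-13 to nearly 1 over all edgeR and DESeq2 alternatives. Between pool sets, 0 to 4 members were called, and Gzmb ran from -0.15 to 0.26. With 37 to 245 Fcer1a UMIs per pool in the class and most Prss34 UMIs in 29 cells, counting limits both genes.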
